A study of Mus musculus with 27 samples.

Results

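The cerebellins and the partners through which they bridge synapses were followed across 9 groups of sorted mouse retinal cells. The set held 7 genes of the 19301 genes that carried a single symbol on the array: the secreted organisers Cbln1, Cbln2, Cbln3 and Cbln4, the neurexins Nrxn2 and Nrxn3, and the delta glutamate receptor Grid1. They were chosen by name, and each was read by 1 probe set of the array. Each array measured biotin-labelled total RNA of 200 cells sorted from adult retina. Each of the 9 groups had 3 biological replicate arrays, 27 in all, which limits the precision of each mean.

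The Arc group held amacrine cells that carried GFP in the line Tg(Arc-EGFP)194Gsat/Mmcd, under control of the gene Arc. The cone group held 200 GFP-positive cone photoreceptors of the line Tg(Chrnb4-EGFP)1Gsat and no starburst cells. The starburst group held 200 starburst cells, amacrine cells that release acetylcholine, from 129S6-Chat_tm1(cre)Lowl/J mice crossed with Rosa26-LSL-RFP, in which Cre driven from the Chat locus switches on RFP. Another 6 groups were mixtures of starburst and cone cells, with 150 and 50, 125 and 75, 100 and 100, 50 and 150, 43 and 157, and 17 and 183 cells. All groups share the same labelled background, C57BL/6J mixed with FVB/N-Swiss Webster hybrid, and the founders of some lines are said to carry a recessive mutation that makes photoreceptors degenerate. Each cell type came from another mouse line, so cell type and line cannot be told apart. For the titration, 2 cone-line and 6 starburst-line retinas were pooled before sorting, and the Arc arrays served as a batch control. The labels do not say how many kinds of amacrine cell the Arc reporter marks.

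Cerebellins are secreted proteins of the C1q family. At a synapse they bind neurexins on the presynaptic membrane and delta glutamate receptors on the postsynaptic membrane, and so tie both sides together. Cbln1 is best known from cerebellar granule cells, which release it at their synapses, and Cbln3 is known there as a partner that assembles with Cbln1. Amacrine cells are interneurons of the inner retina and mostly release GABA or glycine, while cones release glutamate at ribbon synapses of the outer retina.

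Promoters were printed for a pair of cerebellins that stood apart in these data, one high in Arc cells and one dim in every group. The stretches run from 250 bases before to 50 bases after the annotated start, in build GRCm38.p6 of RefSeq, and lie on the minus strand at chr2:172043417-172043716 for Cbln4 and chr14:55884207-55884506 for Cbln3. Of the 7 genes, 3 had a promoter in the table used (Cbln3, Cbln4 and Nrxn3). Capitals mark matches to an E-box (CANNTG) or a GC box (GGGCGG), searched on both strands.
Cbln4: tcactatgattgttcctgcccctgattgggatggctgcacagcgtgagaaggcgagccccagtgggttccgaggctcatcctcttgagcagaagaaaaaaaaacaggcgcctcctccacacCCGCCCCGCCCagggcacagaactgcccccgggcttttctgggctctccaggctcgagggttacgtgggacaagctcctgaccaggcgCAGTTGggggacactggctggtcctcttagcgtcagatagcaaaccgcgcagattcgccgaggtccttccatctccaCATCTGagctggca
Cbln3: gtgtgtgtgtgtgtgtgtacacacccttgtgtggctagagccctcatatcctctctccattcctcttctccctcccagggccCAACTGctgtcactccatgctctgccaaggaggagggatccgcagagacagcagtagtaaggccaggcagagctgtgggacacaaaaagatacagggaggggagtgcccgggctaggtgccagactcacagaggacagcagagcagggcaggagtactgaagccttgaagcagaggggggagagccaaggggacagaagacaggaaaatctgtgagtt
The Cbln4 promoter held 2 E-box matches and 2 GC box matches, which share a base, and the E-box and GC box matches did not overlap. The Cbln3 promoter held 1 E-box match and 0 GC box matches. Neither had a TATA box (TATAAA) or a full cAMP response element (TGACGTCA). Of 32851 promoters of this length, 72.3% held an E-box, 35.7% a GC box, 13.6% a TATA box and 1.79% the cAMP response element. Both promoters thus hold the motif found in most promoters, and a match describes letters and not a bound factor.

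The labelled cell types were checked first. All 8 cone markers were higher in pure cone than in pure starburst arrays, 5 of 6 starburst markers were lower in Arc than in starburst arrays, and all 6 tested amacrine markers were higher in Arc than in cone arrays. Summed over the list and on the linear scale, amacrine markers lay between 1024 and 1221 on the Arc arrays, 176 and 278 on the cone arrays and 767 and 796 on the starburst arrays. The third arrays of 5 groups with cones stood apart. Their summed cone markers were 653 (75 cones), 3254 (150 cones), 1777 (157 cones), 3783 (183 cones) and 5169 (200 cones), each below the first and second arrays of its group. Rod markers, of which 7 of 9 were measured, were present in every group and lay between 3508 and 5255 on the cone arrays, against 778 and 1285 on the starburst arrays. The main differences from cones are given with and without the third arrays below.

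Of the secreted organisers, Cbln1, Cbln2 and Cbln4 stood far higher in Arc cells than in any mixture of starburst and cone cells, and Cbln3 stayed under the filter level on every array. All values below are log2 values as the authors normalised them. A gene was tested if it exceeded 2.83, the median of all values, on at least 3 arrays, which 12441 genes did. Of the 7 genes, 5 were tested, and none of these passed through the Arc arrays alone, since 9 (Cbln1) to 24 (Cbln2 and Nrxn3) of the other 24 arrays also lay above that level. A gene was called at a limma adjusted p (Benjamini-Hochberg, over all tested genes) under 0.05 together with an absolute log2 difference of at least 1. Errors of differences are standard errors (SE) and brackets hold 95% intervals, both from a single limma model of the 27 arrays (n = 3 in each group). The members were chosen with earlier results of these data known, so the calls describe them and are not independent evidence. In sorted pools, fewer cells that express a gene and less RNA per cell cannot be told apart.

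Cbln1 read 7.81, 7.64 and 7.50 on the 3 Arc arrays, against 2.92, 2.08 and 2.74 on the cone arrays and 2.41, 4.07 and 2.66 on the starburst arrays. Every Arc array was above every other array, and 2 of 3 starburst and 2 of 3 cone arrays lay under the filter level, so that both folds depend on the background. The difference was 4.60 ± 0.42 against starburst cells [3.73 to 5.48] (adjusted p = 8.5e-08), a 24.3-fold higher level. Against cones it was 5.07 ± 0.42 [4.19 to 5.95] (adjusted p = 1.6e-08), or 33.5-fold, and 5.15 without the third arrays of the groups with cones. Among the mixtures, Cbln1 was highest on the third array of 157 cones (4.74), while the first and second arrays of that group read 2.66 and 2.98. The second array of 150 cones (3.74) and the second pure starburst array (4.07) also lay above the rest of their groups. Without that starburst array the difference of Arc from starburst cells was 5.12. Single high arrays of this kind occurred in 3 groups with starburst cells, and the other 2 arrays of each lay between 2.41 and 2.98.

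Cbln2, a close relative with the same kinds of partner, read 7.65, 7.64 and 7.88 on the Arc arrays, against 4.49, 3.34 and 4.23 on the cone arrays and 3.23, 3.10 and 2.83 on the starburst arrays. The Arc arrays again did not overlap any other group, and cone and starburst arrays did not overlap each other. Arc cells exceeded starburst cells by 4.67 ± 0.34 [3.96 to 5.39] (adjusted p = 2.5e-09; 25.5-fold) and cones by 3.70 ± 0.34 [2.99 to 4.42] (8.1e-08; 13.0-fold; 3.81 without the third arrays). Cones exceeded starburst cells by 0.97 ± 0.34 [0.25 to 1.69], which missed the threshold (adjusted p = 0.0658), and by 0.86 without the third arrays (0.117). For comparison, 11% of all tested genes had cone arrays wholly above the starburst arrays, and 2.64% were called higher and 5.79% lower in cones. Without the second cone array, the lowest of that group, the difference was 1.31 and passed (adjusted p = 0.0184).

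Cbln4, which besides neurexins is known to bind the netrin receptor family, read 6.44, 6.21 and 5.66 on the Arc arrays, against 3.31, 3.20 and 3.47 on the cone arrays and 2.83, 2.82 and 3.29 on the starburst arrays. The Arc arrays were clear of all others, and cone and starburst arrays overlapped each other. Arc cells exceeded starburst cells by 3.12 ± 0.31 [2.49 to 3.76] (adjusted p = 2.6e-07; 8.72-fold, a value that depends on the background, since 2 of 3 starburst arrays lay within 0.01 of the filter level) and cones by 2.77 ± 0.31 [2.14 to 3.41] (9.7e-07; 6.84-fold; 2.85 without the third arrays). One array outside the Arc group stood out, the third array of 183 cones at 4.23, while the other 2 arrays of that group read 2.82 and 2.90. Cones and starburst cells differed by 0.35 ± 0.31 [-0.29 to 0.99] in Cbln4 and by -0.46 ± 0.42 [-1.34 to 0.41] in Cbln1, both without a call (adjusted p = 0.524 and 0.540).

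Cbln3 did not reach the filter level on any array. It read 2.26, 2.32 and 2.76 on the Arc arrays, and between 2.04 and 2.81 (median 2.46) on the other 24. The Arc arrays overlapped both pure groups. With no filter on dim genes, Cbln3 differed between Arc and starburst cells by -0.19 ± 0.15 (adjusted p = 0.705). The gene that assembles with Cbln1 in the cerebellum was thus under the filter level on the arrays where Cbln1 was highest.

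**Figure D1:**
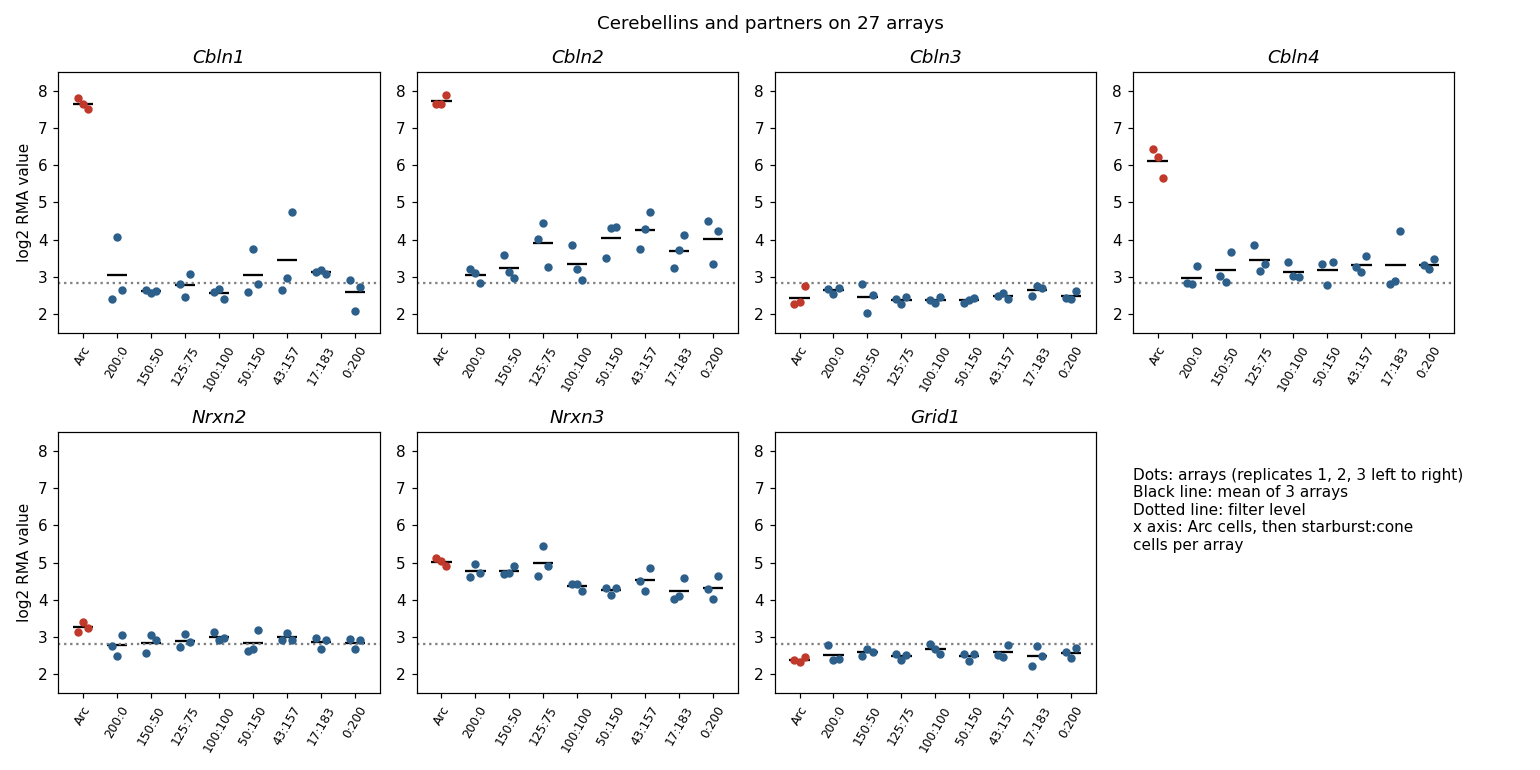
Log2 RMA values of the 7 genes on every array (y axis), in Arc cells and then in mixtures ordered by cone number (x axis, starburst to cone cells per array). Dots are arrays, black lines are means of 3, and the dotted line is the filter level of 2.83. Cbln1, Cbln2 and Cbln4 have their 3 Arc arrays above all other 24 arrays, and Cbln3 and Grid1 stay under the dotted line on all 27.

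Of the 5 tested genes, 3 were called higher in Arc than in starburst cells and the same 3 higher in Arc cells than in cones. Over all tested genes, 2.16% were called higher and 1.39% lower in Arc than in starburst cells, and 7.83% higher and 2.51% lower in Arc cells than in cones. The comparisons share the Arc arrays and are not independent of each other. A stricter description asks how far the lowest Arc array lay above the highest of the other 24. All 3 Arc arrays lay above the other 24 for 3.5% of tested genes, and by at least 1 on the log2 scale for 73 genes (0.587%). This separation was 2.90 for Cbln2, 2.76 for Cbln1 and 1.44 for Cbln4, which ranked 6, 7 and 41 among 12441 genes. For Nrxn2 it was -0.07 (rank 544) and for Nrxn3 -0.55 (rank 3873), and the median gene had -0.75. The Arc arrays thus stood clear of all others for 3 cerebellins and for neither neurexin.

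**Figure D2:**
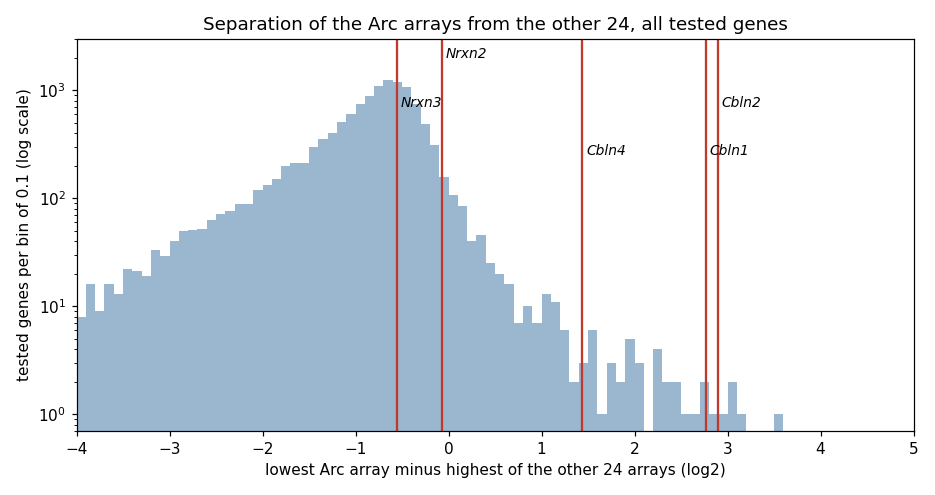
Distance from the highest of the other 24 arrays to the lowest Arc array in log2 units (x axis), over 12441 tested genes in bins of 0.1 (y axis, log scale). Positive values mean that all 3 Arc arrays lay above the other 24. Red lines mark Cbln2 (2.90), Cbln1 (2.76) and Cbln4 (1.44) in the right tail. They also mark Nrxn2 (-0.07, rank 544) and Nrxn3 (-0.55, rank 3873), both under 0.

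The partners of the cerebellins showed no such separation. Nrxn3, a presynaptic adhesion receptor that cerebellins bind, was measurable in every group. It read 5.13, 5.04 and 4.91 on the Arc arrays, against 4.28, 4.01 and 4.64 on the cone arrays and 4.61, 4.97 and 4.72 on the starburst arrays. The Arc arrays were clear of the cone arrays and overlapped the starburst arrays. Arc cells differed from cones by 0.71 ± 0.20 [0.30 to 1.13], with an adjusted p of 0.0158 but a difference under the threshold of 1, and by 0.88 without the third arrays (adjusted p = 0.00500). From starburst cells they differed by 0.26 ± 0.20 [-0.16 to 0.68] (adjusted p = 0.635). Cones differed from starburst cells by -0.46 ± 0.20 [-0.88 to -0.04] (adjusted p = 0.148), and by -0.62 without the third arrays (0.0486), under the threshold of 1. The highest Nrxn3 value of all arrays was 5.46, on the second array with 75 cones. Neurexin genes make long and short proteins from separate promoters, and which of them the probe set reads is not given in the sources used here.

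Nrxn2, another neurexin, was dim. It read 3.13, 3.41 and 3.25 on the Arc arrays, against 2.94, 2.68 and 2.93 on the cone arrays and 2.77, 2.50 and 3.06 on the starburst arrays. The Arc arrays were above both pure groups but not above all mixtures, where the third array of 150 cones read 3.21. The differences were 0.48 ± 0.17 [0.13 to 0.84] from starburst cells (adjusted p = 0.119) and 0.41 ± 0.17 [0.06 to 0.77] from cones (0.104), and neither was called. All 3 Arc arrays lay above those of starburst cells for 14.5% of tested genes and above those of cones for 22.6%.

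Grid1, a delta receptor and the postsynaptic end of the bridge, did not reach the filter level on any array. It read 2.40, 2.33 and 2.47 on the Arc arrays, 2.60, 2.45 and 2.71 on the cone arrays and 2.79, 2.39 and 2.43 on the starburst arrays. The groups of Arc and starburst cells overlapped. With no filter on dim genes, Grid1 differed between Arc and starburst cells by -0.14 ± 0.13 (adjusted p = 0.793).

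**Figure D3:**
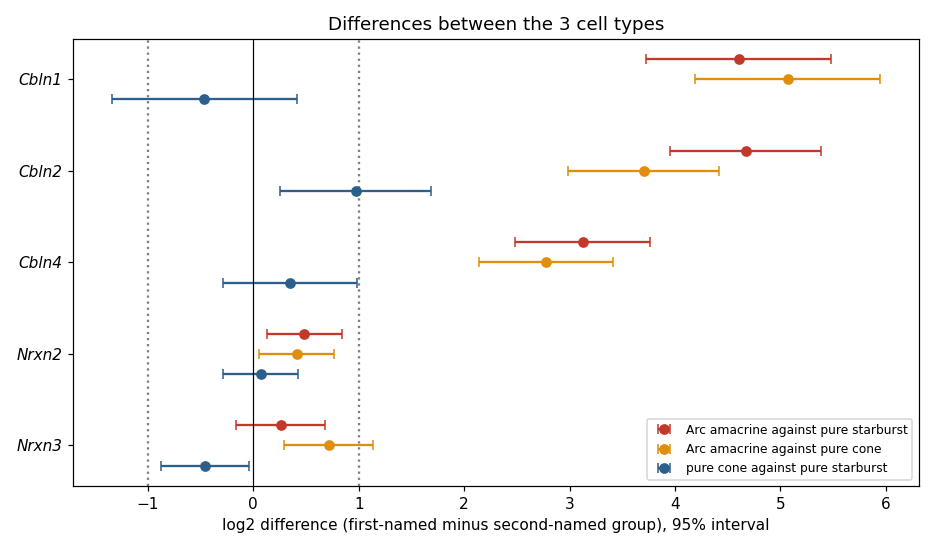
Log2 differences (x axis) of the 5 tested genes in the 3 comparisons of cell types, first-named minus second-named group. Points are limma estimates from n = 3 arrays per group, bars are 95% intervals, and dotted lines mark -1 and 1. The intervals of Cbln1, Cbln2 and Cbln4 for Arc cells start at 2.14 or higher, and those of the neurexins end at 1.13 or lower.

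Across the groups of starburst and cone cells, Cbln2 was the one member called by slope on the share of cones, a limma fit over the 15 titration arrays. It read 3.58, 3.13 and 2.98 at 50 cones, 3.87, 3.22 and 2.91 at 100 cones and 3.51, 4.30 and 4.35 at 150 cones. The arrays of neighbouring steps overlapped. Its means were 3.05 ± 0.20, 3.23 ± 0.31, 3.33 ± 0.49, 4.05 ± 0.47 and 4.02 ± 0.61 (SD, n = 3 each) at 0, 50, 100, 150 and 200 cones. The slope was 1.10 ± 0.28 on the log2 scale from no cones to all cones [0.50 to 1.71] (limma adjusted p = 0.0140). Of all tested genes, 8.2% were called by slope in either direction, 2.55% with a rising and 5.65% with a falling slope, so 1 of 5 members is a weak count. The call was lost without the first replicate of each group (adjusted p = 0.0742), without replicate 3 of each (0.159) and without the third arrays of the groups with cones (slope 0.94, 0.0568). The 3 other mixtures read 3.91 ± 0.61 at 75, 4.25 ± 0.50 at 157 and 3.70 ± 0.44 at 183 cones, so that 75 cones gave a higher mean than 100. With these groups included the slope was 0.97, under the threshold (adjusted p = 0.0182). Summed rod markers moved with the cone share too, at 778 to 1285 on the arrays without cones and 3508 to 5255 on those with 200, and their part in the slope was not tested.

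The other members did not pass along the titration. Nrxn3 fell short of the threshold with a slope of -0.57 ± 0.15 [-0.90 to -0.25] and an adjusted p of 0.0176. Its means were 4.77 ± 0.19, 4.78 ± 0.11, 4.37 ± 0.10, 4.25 ± 0.12 and 4.31 ± 0.31 (SD, n = 3 each) at 0, 50, 100, 150 and 200 cones. At 75, 157 and 183 cones they were 5.0 ± 0.42, 4.53 ± 0.30 and 4.24 ± 0.31. The slopes of Cbln1 (-0.20 ± 0.35, adjusted p = 0.774), Cbln4 (0.28 ± 0.19, 0.388) and Nrxn2 (0.05 ± 0.17, 0.880) had intervals that included 0. Between the pure ends, limma called 0 of the 5 tested members, against 8.42% of all tested genes. An unadjusted limma p under 0.05 was found for 2 of 5 (Cbln2 and Nrxn3). The share of all tested genes at that looser cut was not counted, so 2 of 5 has no background to be read against.

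Ordered by group mean, Arc cells came first for Cbln1 (7.65), Cbln2 (7.72), Cbln4 (6.11), Nrxn2 (3.26) and Nrxn3 (5.02). The next mean was 3.46 at 157 cones for Cbln1, 4.25 at 157 cones for Cbln2 and 3.46 at 75 cones for Cbln4, and for these 3 the Arc arrays did not overlap it. Below Arc, each pair of neighbours in the order overlapped in their arrays for all 3. For Nrxn3 the Arc mean and the next, 5.0 at 75 cones, were within the spread of the arrays, as were all other neighbours. For Nrxn2 the next mean after Arc was 3.01 at 100 cones, and these arrays overlapped. For Cbln3 and Grid1 every pair of neighbours overlapped, with group means between 2.38 and 2.66 and between 2.40 and 2.69.

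The ganglion cell marker Thy1 was also higher on the Arc arrays. Summed over the 6 of 7 measured ganglion cell markers, the linear signal lay between 105 and 186 on the Arc arrays, against 56.6 and 91.2 on the cone arrays and 45.7 and 59.1 on the starburst arrays. Of 3 tested markers, 1 was called higher in Arc than in starburst cells, Thy1, which read 5.96 to 7.09 on the Arc arrays, against 4.13 to 4.36 on the cone arrays and 3.73 to 4.69 on the starburst arrays. The defining markers Rbpms, Pou4f1 and Slc17a6 lay under the filter level on all 3 Arc arrays, at 2.29 or lower. Without Thy1 the sum was 38.5 to 49.8 on the Arc arrays, against 36.1 to 73.7 on the cone arrays and 31.4 to 34.5 on the starburst arrays. Of the Muller glia markers, 1 of 5 tested (Dkk3) was called higher in Arc cells than in starburst cells and than in cones. Summed over all 6 measured, they lay between 289 and 372 on the Arc arrays, against 195 and 280 on the cone arrays and 299 and 433 on the starburst arrays. Glul read 6.50 to 7.48, Apoe 6.93 to 7.08 and Rlbp1 3.44 to 4.29 on the Arc arrays, and Slc1a3 and Aqp4 lay under the filter level there. Microglia markers, which include the C1q genes C1qa and C1qb, summed to 29.4 to 33.7 on the Arc arrays, 31.5 to 39.2 on the cone arrays and 35.7 to 70.4 on the starburst arrays. Cone marker sums on the Arc arrays were 72.1 to 189, against 92.0 to 288 on the starburst arrays. On the third array of 157 cones, where Cbln1 and Cbln2 both read 4.74, the amacrine markers summed to 493, against 427 and 368 on the other 2 arrays of that group, and the cone markers to 1777, against 9875 and 8999. The part of other cells in these single values was not tested.

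The wider pathway was read through a list of 49 genes with 8 roles, of which 45 were measured and 32 tested. Among the relatives of the cerebellins, of 4 tested genes for C1q-like proteins and their receptor, 2 were called higher in Arc than in starburst cells. Over all tested genes this share was 2.16%. C1ql1, a secreted C1q-like protein that binds the adhesion receptor Adgrb3, read 6.90, 5.19 and 4.86 on the Arc arrays, against 2.99, 2.50 and 3.00 on the cone arrays and 2.24, 2.71 and 2.76 on the starburst arrays. The Arc arrays were clear of both groups but spread over 2 units among themselves. Arc cells exceeded starburst cells by 3.08 ± 0.33 (adjusted p = 8.5e-07) and cones by 2.82 ± 0.33 (1.8e-06). Without the first Arc array these were 2.46 and 2.19, and without the third arrays the difference from cones was 2.90.

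C1ql2, a further secreted C1q-like protein, read 5.51, 5.66 and 5.52 on the Arc arrays, against 3.76, 3.30 and 3.92 on the cone arrays and 3.67, 3.97 and 3.22 on the starburst arrays. The Arc arrays overlapped neither group and lay close together, while cone and starburst arrays overlapped. The differences were 1.94 ± 0.28 from starburst cells (adjusted p = 7.3e-05) and 1.90 ± 0.28 from cones (4.0e-05; 2.03 without the third arrays). C1ql3 had another pattern, with its highest group mean in cones. It read 5.95, 6.23 and 4.95 on the cone arrays and 3.79, 3.96 and 3.96 on the starburst arrays, with a difference of 1.80 ± 0.35 (8.96e-04), and its slope along the titration was 1.87 ± 0.30 (5.4e-04). Without the third arrays these were 2.19 and 2.34. The Arc arrays read 4.53, 5.41 and 5.08, above the starburst arrays and overlapping the cone arrays. Their difference from starburst cells was 1.10 ± 0.35 and was not called (adjusted p = 0.0685).

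Adgrb3, the receptor of the C1q-like proteins, lay lower in cones than in either amacrine group. It read 4.63, 4.47 and 4.17 on the Arc arrays, against 3.25, 3.25 and 3.17 on the cone arrays and 4.17, 4.63 and 4.16 on the starburst arrays. Arc cells exceeded cones by 1.20 ± 0.22 (adjusted p = 3.5e-04), and cones differed from starburst cells by -1.10 ± 0.22 (0.0011). Without the second starburst array the difference of cones from starburst cells was -0.94, under the threshold. Without the third arrays the differences were 1.17 for Arc cells against cones and -1.07 for cones against starburst cells.

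Among 10 tested postsynaptic ligands of neurexins, 1 was called higher in Arc than in starburst cells, and 1 higher and 1 lower in Arc cells than in cones. Over all tested genes these shares were 2.16%, 7.83% and 2.51%, so 1 of 10 is a weak count. Lrrtm3, a leucine-rich adhesion protein that binds neurexins, read 4.32, 4.45 and 4.69 on the Arc arrays, against 2.95, 3.12 and 3.25 on the starburst arrays, a difference of 1.38 ± 0.23 (adjusted p = 4.7e-04). It read 2.95, 3.86 and 4.01 on the cone arrays. Its difference between Arc cells and cones was 0.87 ± 0.23 (adjusted p = 0.0109), under the threshold of 1 and not called. Its relative Lrrtm1 read 4.42, 4.76 and 5.04 on the Arc arrays, against 2.46, 2.50 and 2.21 on the cone arrays, a difference of 2.35 ± 0.28 (3.0e-06; 2.26 without the third arrays). The starburst arrays read 3.87, 3.75 and 4.17 for Lrrtm1, between the other groups, and cones differed from them by -1.54 ± 0.28 (5.6e-04; -1.45 without the third arrays). Igsf21, a neurexin ligand known from inhibitory synapses, read 4.58, 4.62 and 4.86 on the Arc arrays, against 6.46, 5.88 and 5.04 on the cone arrays. Its difference was -1.10 ± 0.31 (0.0160), or -1.48 without the third arrays, and the call was lost without Arc array 1 (adjusted p = 0.0583) or 2 (0.0509) or cone array 1 (0.107). The neuroligins Nlgn2 (0.05 ± 0.17) and Nlgn3 (0.10 ± 0.15), the best known neurexin ligands, did not pass between Arc and starburst cells (adjusted p = 0.946 and 0.839).

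Of 7 tested proteins that bind neurexins inside the cell, 1 was called higher in Arc than in starburst cells and 2 higher in Arc cells than in cones. Over all tested genes these shares were 2.16% and 7.83%, so both counts are weak. Cask, a scaffold kinase that binds the neurexin tail, read 4.24, 3.75 and 3.59 on the Arc arrays, against 2.98, 2.96 and 2.59 on the cone arrays and 2.98, 2.62 and 2.97 on the starburst arrays. Its differences, 1.00 ± 0.22 from starburst cells (adjusted p = 0.0062) and 1.01 ± 0.22 from cones (0.0023), lay at the threshold and were 0.81 and 0.82 without the first Arc array. They were also under it without starburst array 2 (0.88) or cone array 3 (0.89), and after quantile normalisation (0.89 and 0.93). Lin7a, a partner of Cask, was lower in cones than in both amacrine groups. It read 6.41, 6.25 and 6.64 on the Arc arrays, against 4.30, 4.14 and 4.85 on the cone arrays and 6.58, 6.44 and 6.65 on the starburst arrays. Arc cells exceeded cones by 2.0 ± 0.25 (4.1e-06; 2.22 without the third arrays), and cones differed from starburst cells by -2.13 ± 0.25 (2.5e-06; -2.34 without them).

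**Figure D4:**
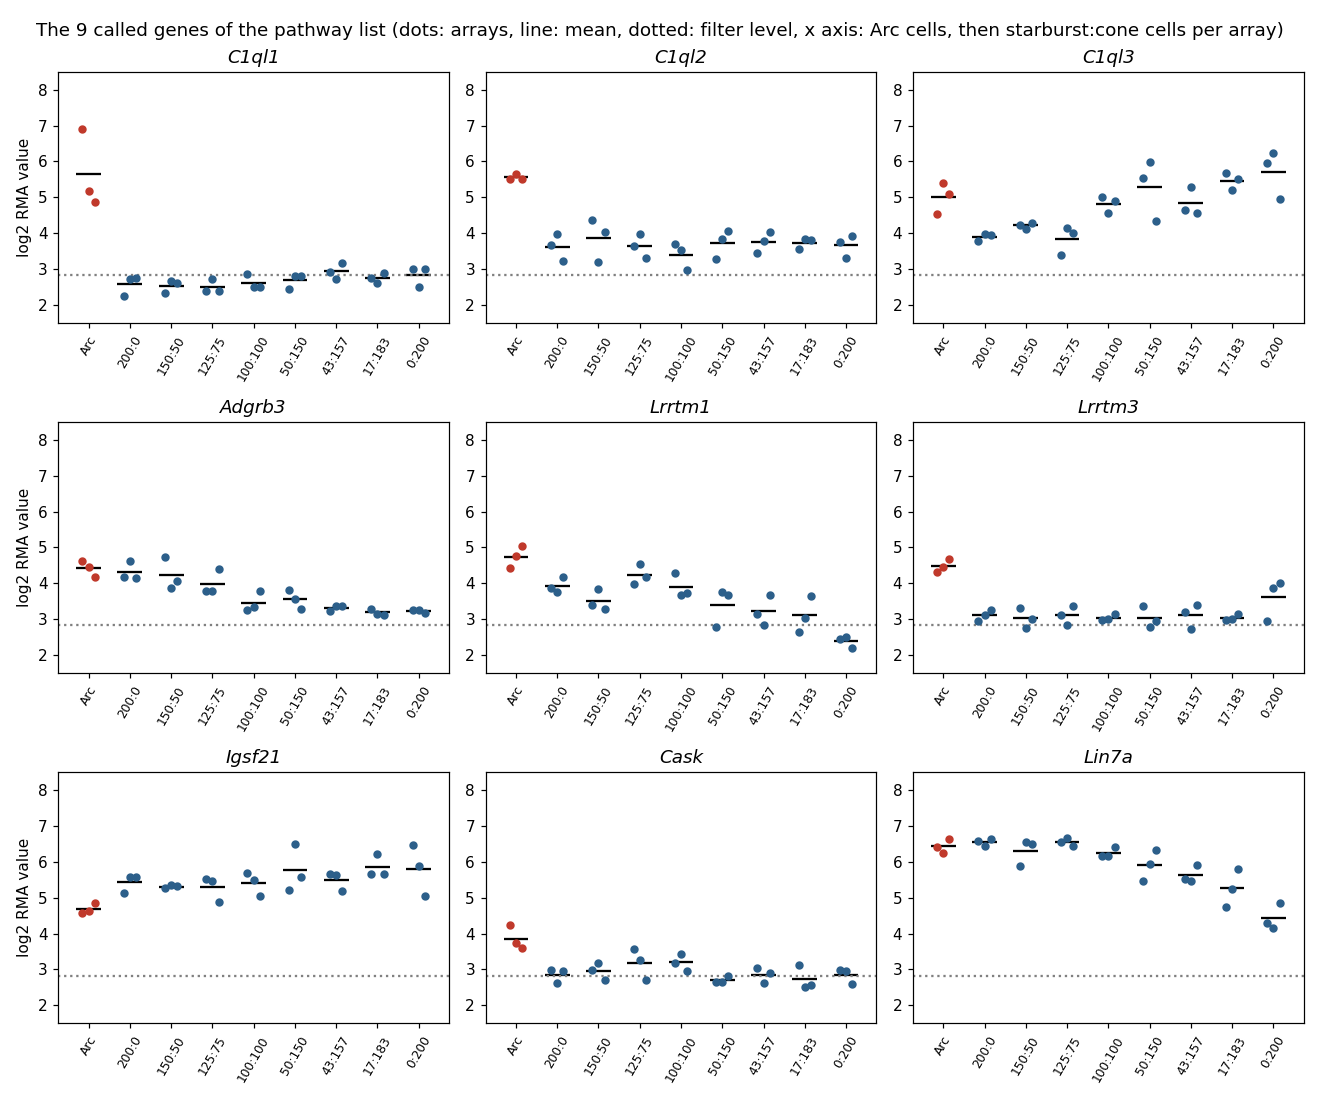
Log2 RMA values on every array (y axis) of the 9 genes of the pathway list called in any comparison, in Arc cells and then in mixtures ordered by cone number (x axis, starburst to cone cells per array). Dots are arrays, black lines means of 3 and the dotted line the filter level. C1ql1 and C1ql2 are highest in Arc cells, C1ql3 climbs and Lin7a, Lrrtm1 and Adgrb3 decline towards 200 cones.

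In all, 4 of the 32 tested pathway genes were called higher and 0 lower in Arc than in starburst cells (12.5%, against 3.55% of all tested genes in either direction). Against cones, 6 were higher and 1 lower (21.9%, against 10.3%), and between cones and starburst cells 1 was higher and 3 lower (12.5%, against 8.42%). The slope over the titration called the same numbers, 1 rising and 3 falling (12.5%, against 8.2%), and Lrrtm1 was called there with -1.27 ± 0.31 (adjusted p = 0.0105) but not without any 1 replicate number (0.0594 to 0.0681). The list's median difference was -0.03 for Arc against starburst cells, 0.05 for Arc cells against cones and -0.07 for cones against starburst cells, while the medians over all tested genes were 0.03, 0.07 and -0.04. Limma called 0 of 3 neurexophilin genes, 0 of 5 latrophilin, teneurin and Flrt genes and 0 of 3 delta receptor scaffold genes in each of the 3 comparisons of cell types. At an unadjusted p under 0.05 these groups held 1, 2 and 0 genes between Arc and starburst cells, 0, 1 and 0 between Arc cells and cones, and 0, 2 and 0 between cones and starburst cells. How many of all tested genes passed that cut was not counted, so these counts have no background to be read against. Another 13 genes were measured but under the filter, among them the neuroligin Nlgn1, the latrophilins Adgrl1, Adgrl2 and Adgrl3, and Dcc and Neo1, the netrin receptors tied to Cbln4.

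The genes most like each cerebellin over the 9 group means were looked up among 11794 other tested genes with a name. For Cbln1 they were the adhesion molecule Clmp (Pearson r = 0.996), Ccdc85a (0.995) and the cation channel Trpv2 (0.992). For Cbln2 they were Pir (0.994), the growth-associated protein Gap43 (0.991) and the receptor phosphatase Ptprk (0.991), and for Cbln4 Plppr5 (0.995), Slc51a (0.991) and the secreted hormone Stc1 (0.991). All 9 had their highest mean in Arc cells, which follows from how they were picked. In Arc cells Clmp averaged 6.32, Gap43 7.53 and Stc1 5.98. The size of the rise differed, since the group means spanned from 0.68 (Ccdc85a) to 4.60 (Plppr5). Ccdc85a averaged 3.84 in Arc cells against 3.25 in the next group, and Trpv2 3.99 against 3.13. These values describe 9 points of which the Arc group lies far from the rest. Between the cerebellins themselves, r over the 9 means was 0.962 for Cbln1 with Cbln2, 0.973 for Cbln1 with Cbln4 and 0.976 for Cbln2 with Cbln4. Over the 8 means without Arc cells it was 0.40, 0.02 and 0.72. The values for Cbln1 were far lower without the Arc group, and the 8 remaining means span a narrow range.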

How the data were processed

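The deposited values are log2 values per probe set that the authors made with RMA in the R package oligo under R 2.11.1, per the submitters' processing notes, which also list build mm9; which arrays were normalised together is not given in the sources used here. Array medians lay between 2.78 and 2.89, and 0 arrays were identical. RMA forces similar distributions, so an overall change in RNA per cell is not seen.

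Of 22347 probe sets, 19446 had 1 gene symbol, and a gene with several was read through its brightest on average. Genes above 2.83 on at least 3 arrays were fitted with limma 3.58.1 in R 4.3.3, with 1 mean per group over 27 arrays, and the slope over 15 titration arrays. All tests were two-sided. The steps were tested on simulated data. Named were all 7 members, up to 4 called pathway genes per direction and comparison, and the 3 genes most like each member whose group means span at least 1. The neuroligins, single markers other than defining ones and genes under the filter were picked by name once values were known. The members and lists were chosen with earlier results of these data known.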

Additional observations from a re-analysis of the deposited data

How the results depend on the processing

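The calls of Cbln1, Cbln2 and Cbln4 in Arc cells against starburst cells and against cones held under every alternative run. Against starburst cells the differences ranged from 4.28 to 5.12 (Cbln1), 4.47 to 4.76 (Cbln2) and 2.90 to 3.34 (Cbln4), and against cones from 4.82 to 5.24, 3.36 to 3.94 and 2.55 to 3.00. The number of members called by slope was 0 with all 24 arrays of starburst and cone cells and 0 without the third arrays of 5 groups with cones, a setting chosen after seeing the data; leaving out 1 replicate number gave 0 to 1. Between cones and starburst cells, leaving out 1 array also gave 0 to 1. The cause was not tested. Over all alternatives 371 to 475 genes were called between Arc and starburst cells, 1062 to 1340 between Arc cells and cones, 899 to 1084 between cones and starburst cells and 750 to 1053 by slope. Same-numbered arrays did not all deviate together (correlations of -0.03 to 0.23), so the numbers were not taken as pairs; with the replicate block, 3, 3, 0 and 1 members were called in the 3 comparisons and by slope, out of 449, 1331, 1081 and 1017 genes. Nrxn2 did not pass the stricter filter and has no value there. The number of arrays per group limits the precision.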
